A study of Homo sapiens with 6 samples.

Results

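DNA replication and E2F genes are the genes that license and fire replication origins, copy DNA, supply nucleotides and package new chromatin, together with the E2F transcription factors and G1/S cyclins that control them. They were chosen by name, with earlier results of these data known, as a list of 59 genes in 9 steps. All 59 were found among the 60604 genes of the count table. Shares of the list beside those of all genes are therefore descriptions and not a test of the list. RNA was sequenced from MIA PaCa-2, an established cell line from a human pancreatic carcinoma. One group of 3 libraries came from cells given black phosphorus (BP) at 12.5 µg/ml together with Huaier, a preparation of a medicinal fungus, at 10 mg/ml, and is called BP+Huaier here. The other group of 3 libraries came from cells given BP alone at the same 12.5 µg/ml, and is called BP. The genotype label is WT in all 6 libraries, so both groups share the cell line and BP and differ in Huaier. No label gives the treatment time, and no library of cells free of BP was analysed here. Whether replicate libraries were grown as separate cultures is not in the labels, and the spread behind each p-value may therefore be technical.

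A cell prepares for S phase by loading the MCM helicase onto origins, with the origin recognition complex, CDC6 and CDT1 as loaders and geminin as the inhibitor of CDT1. Cyclin D and cyclin E kinases inactivate the RB protein, which frees activating E2F factors, and these raise transcription of the replication genes, including those of E2F1 and of the repressor E2F7. In pancreatic carcinoma this control is often altered at the CDKN2A locus, which encodes an inhibitor of CDK4. CDKN2A had 0 counts in each of the 6 libraries, a count that allows up to 0.160 to 0.222 CPM. CPM, the count of a gene relative to the summed count of its library, was scaled between libraries with TMM factors, which assume that most genes do not change. Floors cover counting error only, while each ± value, an SE or an SD, also reflects the spread between libraries.

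The promoters of the members were searched for letters that E2F factors are known to prefer, and 5 are shown. E2F1 and CDT1 rose, POLA1 fell, and MCM6 and PCNA did not pass the test. Each sequence runs 5′ to 3′ on the gene's own strand up to its RefSeq start (GRCh38.p14) and stops earlier where an exon of the deposited gene model begins. For 42 of the 49 members with a RefSeq promoter, the bases just after that start were found in a GENCODE transcript of the gene. POLA1 and MCM6 were not among these 42. Runs of 8 or more capitals mark the E2F letters TTTCCCGC, TTTCGCGC, TTTGCCGC or TTTGGCGC or their reverse complements, and runs of 5 mark CCAAT or ATTGG. The windows are chr20:33686386-33686535 on the minus strand for E2F1, chr16:88803639-88803788 on the plus strand for CDT1, chrX:24693768-24693872 on the plus strand for POLA1, chr2:135876444-135876593 on the minus strand for MCM6 and chr20:5126627-5126772 on the minus strand for PCNA.
E2F1: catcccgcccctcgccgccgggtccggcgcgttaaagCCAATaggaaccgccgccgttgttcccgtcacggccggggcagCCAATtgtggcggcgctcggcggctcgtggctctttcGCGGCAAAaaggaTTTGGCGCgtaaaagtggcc
CDT1: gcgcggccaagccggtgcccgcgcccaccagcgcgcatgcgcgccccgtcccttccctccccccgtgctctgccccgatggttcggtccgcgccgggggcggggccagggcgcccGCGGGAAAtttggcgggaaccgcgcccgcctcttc
POLA1: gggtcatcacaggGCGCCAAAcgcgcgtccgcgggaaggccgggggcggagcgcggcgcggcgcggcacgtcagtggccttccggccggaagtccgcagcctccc
MCM6: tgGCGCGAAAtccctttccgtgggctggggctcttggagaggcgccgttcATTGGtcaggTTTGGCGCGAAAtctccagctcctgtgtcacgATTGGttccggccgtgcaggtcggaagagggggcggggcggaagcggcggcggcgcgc
PCNA: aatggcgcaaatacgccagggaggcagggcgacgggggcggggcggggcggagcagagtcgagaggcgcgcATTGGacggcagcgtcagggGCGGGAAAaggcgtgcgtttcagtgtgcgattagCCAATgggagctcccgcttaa

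E2F letters occurred on either strand in the 250 bases before the start in 17 of 49 members with an entry, or 34.7%, against 761 of 27305 promoters in the table, or 2.79%. By outcome, 3 of 12 members that rose held them, as did 13 of 36 that did not pass the test, and so did POLA1, which fell. CCAAT letters, which NF-Y binds, were in 27 of the 49 members, or 55.1%, against 33.0% of all promoters. They were in 4 of 12 members that rose, or 33.3%, in 22 of 36 that did not pass, or 61.1%, and in POLA1. TTTGAA, the core of the CHR element of mitotic genes, was in 2 of 49, or 4.08%, against 13.6%. In MCM6 a pair of E2F matches on opposite strands overlap within 1 capital run, and both are counted. A match is a description of letters, and absence of a match says only that these letters were not in the window. The members were listed as replication and E2F genes, and the promoters in the table were not matched to theirs for GC content. Their shares beside those of all promoters are therefore descriptions and not a test. CCND1, CCNE2, CDK2, E2F8, GINS4, MCM4, MCM5, POLD3, RPA2 and RPA3 had no entry.

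Total counts on genes were between 15657593 and 17036565 per library. BP+Huaier 3 stood apart. Its score on the leading principal component, which held 72.4% of the variance, was -11.5, when BP+Huaier 1 and 2 scored -65.1 and -66 and BP libraries ranged over 43.4 to 50.5. For the members this library was the lowest of its group in 37 of 59 genes and in 11 of the 14 that rose, and its median log2 ratio to the BP mean was 0.18, when the first and second libraries had 0.33 and 0.28. KRT8, KRT18, KRT19 and VIM were well detected, KRT18 and KRT19 rose, and the epithelial markers EPCAM and CDH1 were at 0.27 CPM or less in every library. Of 18 markers of fibroblasts, leukocytes, endothelium and acinar cells 7 had 0 counts, DCN, LUM, PTPRC, CD3E, PRSS1, CELA3A and AMY2A, and their summed level was 419 to 533 CPM in BP+Huaier and 565 to 621 CPM in BP, most of it COL1A2. Of these, COL1A1 rose and CDH5 fell. The part of these markers in the results was not tested. The 13 mitochondrial mRNAs were listed at 0 in every library.

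Addition of Huaier to BP went with higher transcript levels in part of the replication program. RRM2, CDT1 and E2F1 rose at least 2-fold, CCND3, E2F2, E2F7, TK1, POLD1, ORC1, CDK2, SLBP, CCNE1, MCM4 and RFC4 rose by less, and POLA1 and GINS4 fell. All 59 members passed the filter on low counts. Of these, 14 rose, 2 fell and 43 did not pass the test (edgeR quasi-likelihood test, Benjamini-Hochberg adjusted p under 0.05 over 15022 genes). Rises were thus 23.7% of the members, beside 14.4% of all genes tested and 16.6% of the protein-coding ones, and falls were 3.39%, beside 15.0% and 12.8%. Of all genes tested 29.3% changed in either direction. The 3 members that rose at least 2-fold were 5.08%, beside 4.42% of all genes, and no member fell as far, beside 8.99%. E2F1 was under 2-fold in 7 of 16 alternatives, with log2 fold changes over all of them of 0.69 to 1.24, and CDT1 and RRM2 were under it in none. The log2 fold change was above 0 for 51 of 59 members, with a median of 0.33, while 48.7% of all genes tested were above 0 and their median was -0.02. Every BP+Huaier library lay above every BP library for 27 members, or 45.8%, where 21.9% of all genes did so. Every BP+Huaier library lay below every BP library for 4 members, or 6.78%, where 24.9% of all genes did so. By step, 60.0% of the 5 E2F genes rose, 50.0% of the 6 cyclins and kinases, 40.0% of the 5 nucleotide genes, 25.0% of the 4 chromatin genes, 23.1% of the 13 licensing genes, 16.7% of the 6 clamp genes and 11.1% of the 9 primase and polymerase genes. No gene rose among the 6 of origin firing or the 5 of lagging strand maturation and single-strand binding. In steps of this size a share rests on 0 to 3 calls. In bulk RNA more cells in S phase and more RNA per cell cannot be told apart.

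**Figure D1:**
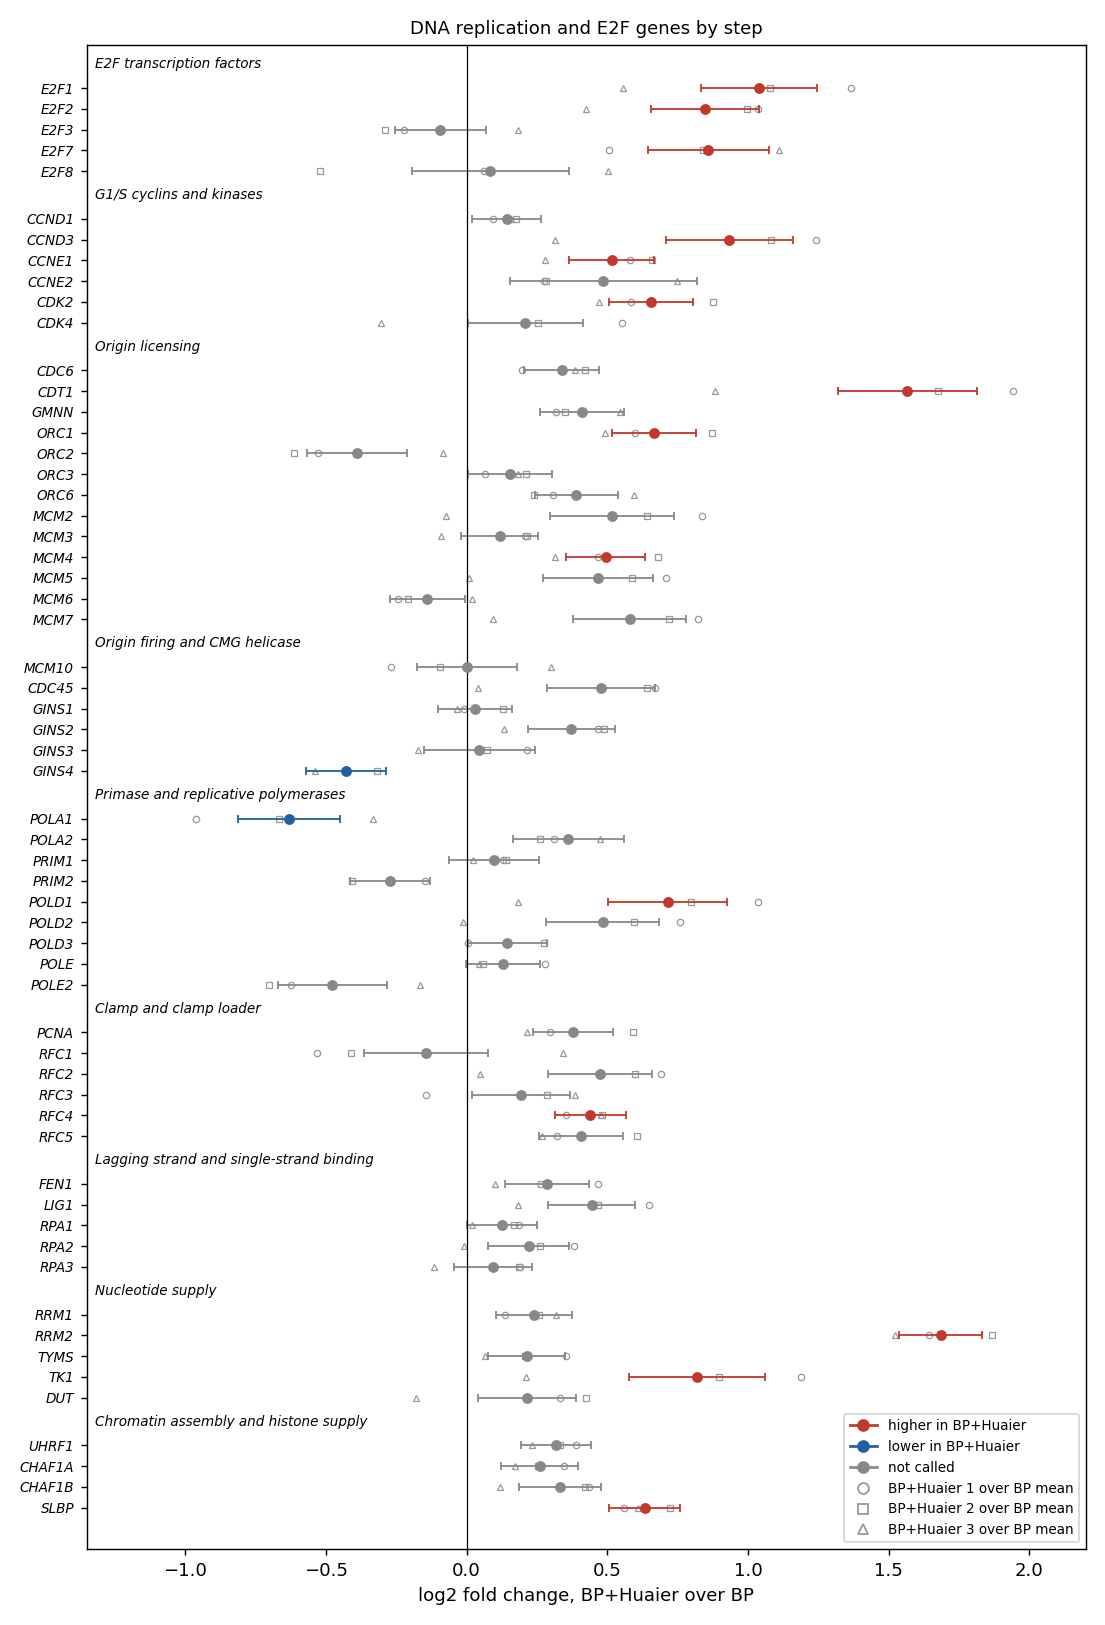
Log2 fold change of each member, BP+Huaier over BP, with its standard error as a bar, grouped by step of replication, where red members rose, blue members fell and grey ones did not pass the test. Open symbols give each BP+Huaier library over the BP mean (n = 3 libraries per group), and of 59 members 14 are red and 2 are blue, with RRM2 and CDT1 farthest to the right.

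How far these counts hold depends on single libraries. Without BP+Huaier 3, 36 members rose and 5 fell, beside 28.8% and 31.0% of all genes. Without BP+Huaier 2 there were 4 rises, or 6.78% beside 6.08% of all genes, and without BP 1, 2 and 3 there were 3, 4 and 4 rises, or 5.08%, 6.78% and 6.78% beside 5.27%, 5.46% and 6.61%, so that in these smaller sets the members' share was near that of all genes. No member fell in these 4 sets, beside 6.48%, 5.92%, 6.14% and 6.84% of all genes, nor without BP+Huaier 1, where 11 rose, or 18.6% beside 11.4%. DESeq2 called 22 higher, or 37.3% beside 18.4%, and edgeR with DESeq2 size factors 15, or 25.4% beside 15.2%. With no filter on low counts 20 rose, or 33.9% beside 9.09%, and 1 fell, beside 9.63%. With a replicate block 9 rose, or 15.3% beside 9.03%, and with the block and the GC and length trend subtracted 23, or 39.0% beside 19.4%. E2F1, CDT1 and RRM2 stayed called under all 16 alternatives that keep the threshold. SLBP stayed called under 14, and missed the threshold without BP 1 (edgeR adjusted p = 0.0525) and with scaling by library size alone. E2F2 and CCND3 stayed called under 12, E2F7, CDK2 and ORC1 under 11 and MCM4 under 10. CCNE1, POLA1, RFC4 and TK1 stayed called under 8, and GINS4 and POLD1 under 7. Scaling by library size alone moved the median of all genes to -0.28 and that of the members to 0.057, so the members still stood 0.34 above all genes, but only 32 members were then above 0, 5 rose and 3 fell, beside 7.0% and 19.7% of all genes. No member that changed sign under that scaling passed the test in either fit.

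**Figure D2:**
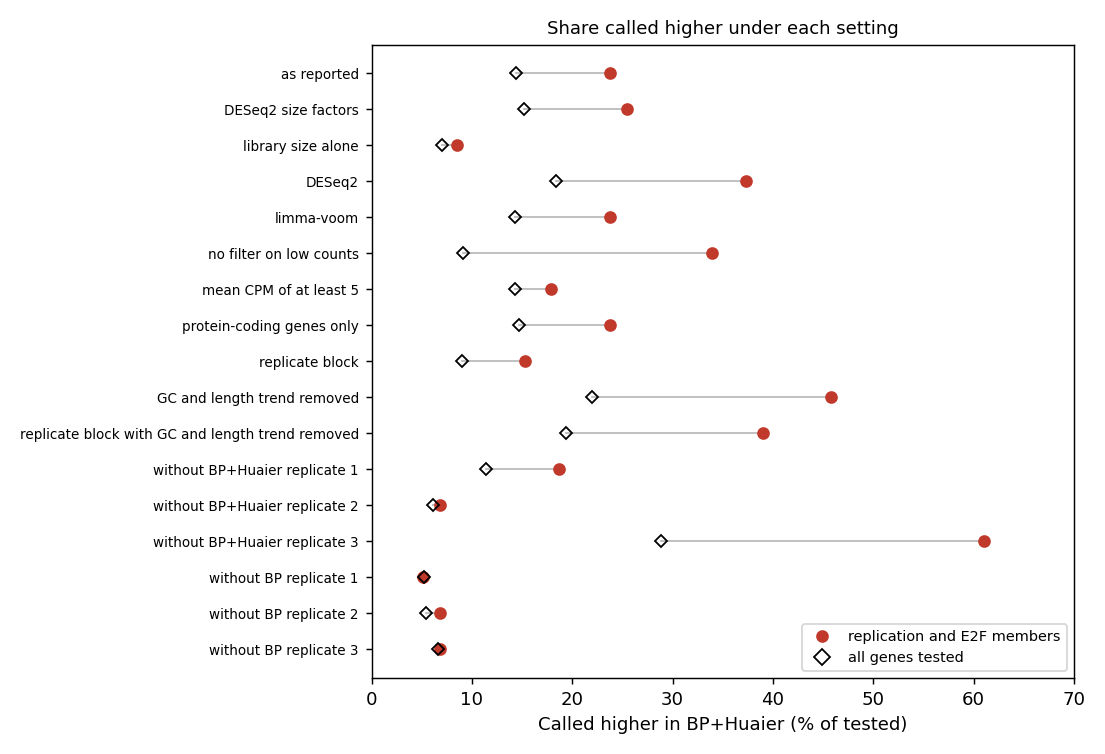
Percentage of tested genes called higher in BP+Huaier under each setting, with filled circles for the replication and E2F members and open diamonds for all genes tested. The members sit at 23.7% against 14.4% for all genes as reported, at 61.0% against 28.8% without BP+Huaier 3, and at 5.08% against 5.27% without BP 1.

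Among the transcription factors, the activators E2F1 and E2F2 and the repressor E2F7 rose, and E2F3 and E2F8 did not pass the test. Throughout, values of a group are listed for libraries 1, 2 and 3 in that order. E2F1 (ENSG00000101412.13, GRCh38 chromosome 20, 33675477 to 33686385) had 115, 94.1 and 65.5 CPM in BP+Huaier, against 43.8, 40.6 and 49.1 CPM in BP. The lowest BP+Huaier library, the third, still lay above every BP library, and the log2 fold change was 1.04 ± 0.20 (SE; edgeR adjusted p = 0.00742). E2F2 stood at 23.1, 22.5 and 15.1 CPM in BP+Huaier, against 10.98, 11.5 and 11.2 CPM in BP, 1.80-fold higher (edgeR adjusted p = 0.0125). E2F7, which represses E2F1 and other targets late in S phase, was at 5.31, 6.72 and 8.13 CPM in BP+Huaier, against 3.57, 3.78 and 3.78 CPM in BP, log2 fold change 0.86 ± 0.22 (edgeR adjusted p = 0.0181). Its highest value was in BP+Huaier 3, the library in which E2F1 and E2F2 were lowest within their group. E2F3, a further activator, averaged 26.4 ± 4.90 CPM in BP+Huaier and 28.2 ± 0.562 CPM in BP with overlapping groups, and the repressor E2F8 averaged 4.51 ± 1.58 CPM in BP+Huaier and 4.28 ± 0.591 CPM in BP (SD, n = 3 each). The calls of E2F2 and E2F7 were lost without BP+Huaier 2 and without each BP library, with edgeR adjusted p up to 0.0605 and 0.0835. That of E2F7 was also lost with scaling by library size alone (edgeR adjusted p = 0.114). Per kilobase of exon, the mean level of E2F1 was 34.0 and 16.5 CPM in BP+Huaier and BP, above that of E2F3 at 5.09 and 5.44, E2F2 at 3.70 and 2.05, E2F8 at 1.09 and 1.04 and E2F7 at 1.07 and 0.59.

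Of the 6 cyclins and kinases of G1/S, CCND3, CCNE1 and CDK2 rose. CCND3, which encodes cyclin D3, a partner of CDK4 and CDK6, had 137, 123 and 72.0 CPM in BP+Huaier, against 58.9, 52.2 and 62.6 CPM in BP, and was 1.91-fold higher (edgeR adjusted p = 0.0162). CCNE1, which encodes cyclin E1, was at 32.4, 34.2 and 26.3 CPM in BP+Huaier, against 22.6, 21.5 and 20.8 CPM in BP, log2 fold change 0.52 ± 0.15 (edgeR adjusted p = 0.0323). CDK2, the kinase that cyclin E activates, had 52.4, 64.1 and 48.4 CPM in BP+Huaier, against 35.8, 36.1 and 32.8 CPM in BP (log2 fold change 0.66 ± 0.15, edgeR adjusted p = 0.0128). In none of these did the groups overlap, and in each BP+Huaier 3 was the lowest of its group. CCND1, which encodes cyclin D1 and had the most counts in this step, was at 116, 122 and 121 CPM in BP+Huaier, against 114, 109 and 102 CPM in BP, so the groups were apart but by only 0.14 ± 0.12 on the log2 scale (edgeR adjusted p = 0.393). CDK4 averaged 103 ± 29.5 CPM in BP+Huaier and 89.2 ± 4.95 CPM in BP (SD, n = 3 each), and CCNE2, the second cyclin E gene, 1.67 ± 0.348 CPM in BP+Huaier and 1.20 ± 0.336 CPM in BP. CDK4 shared 44.2% of its exon bases with TSPAN31 and CCNE2 shared 37.0% with INTS8, both on the opposite strand, and since the strand setting of the counting is not given these values are uncertain to that extent. The calls of CCND3 and CDK2 were lost without BP+Huaier 2 and without each BP library (edgeR adjusted p up to 0.0826 and 0.0609), and that of CCNE1 when any 1 library other than BP+Huaier 3 was left out (up to 0.118). Scaling by library size alone also ended the calls of CDK2 and CCNE1. A filter at a mean of 5 CPM or a replicate block ended that of CCNE1 as well.

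**Figure D3:**
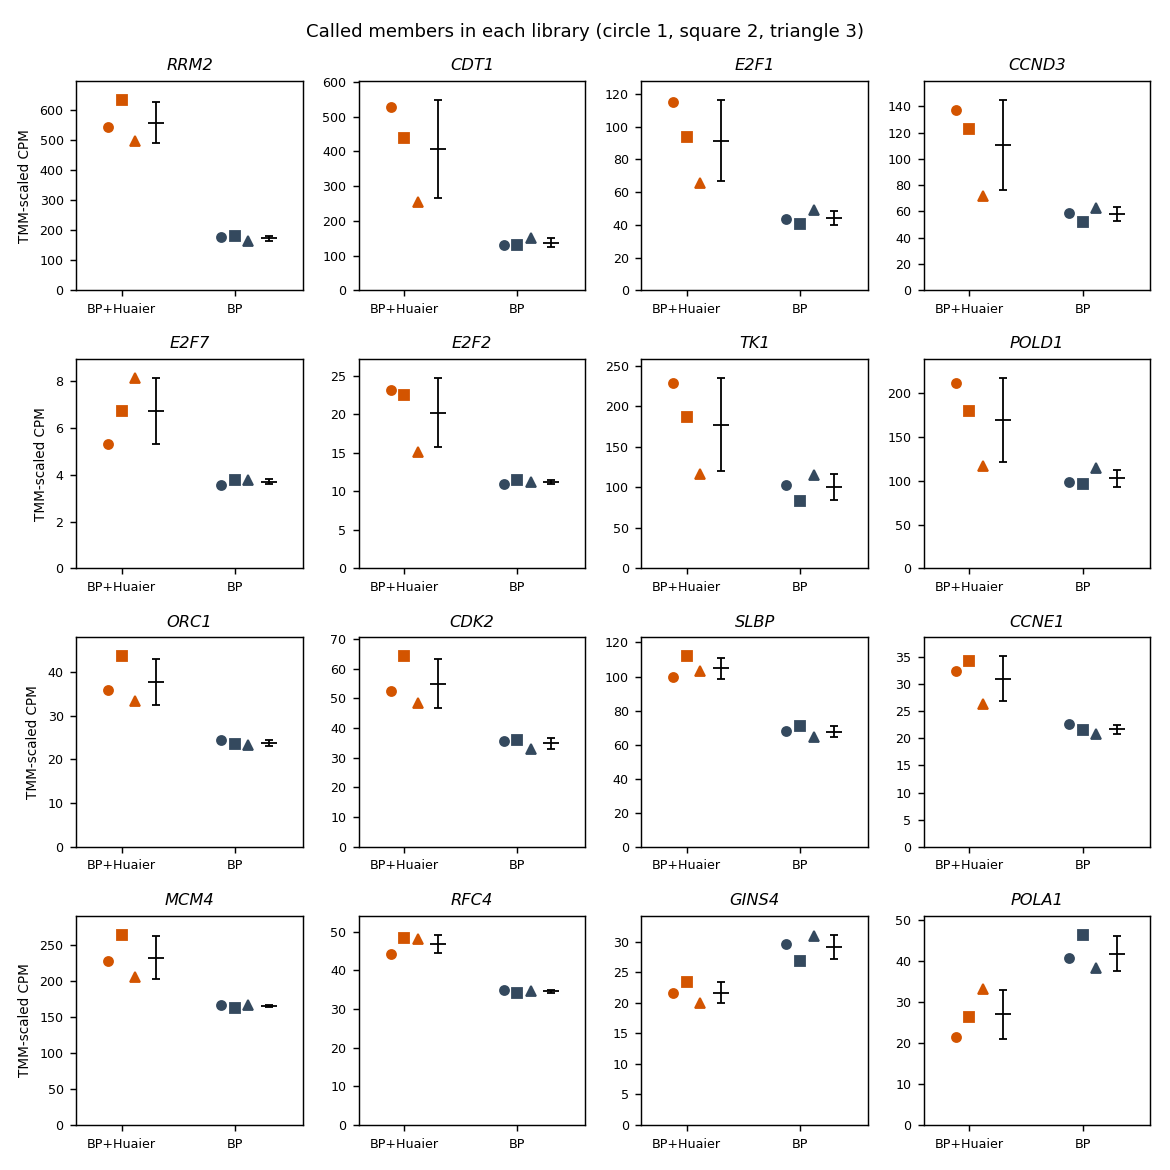
TMM-scaled CPM of the 16 members that passed the test in each library, with BP+Huaier left of BP, circles, squares and triangles for libraries 1, 2 and 3, and the mean with its SD (n = 3) as a bar beside them. No panel shows overlapping groups, E2F7 and POLA1 have their highest BP+Huaier value in library 3, and E2F1, CDT1, TK1 and POLD1 have their lowest there.

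Origin licensing held 3 rises among 13 genes, CDT1, ORC1 and MCM4, and no fall, which is 23.1%, beside 14.4% of all genes higher and 15.0% lower. CDT1 (ENSG00000167513.9, GRCh38 chromosome 16, 88803789 to 88809258), the loader that brings MCM complexes to origins, had 529, 439.5 and 253 CPM in BP+Huaier, against 130.1, 131 and 151 CPM in BP. Each BP+Huaier library was above every BP library, with the first well above the third, and the log2 fold change was 1.57 ± 0.25 (SE; edgeR adjusted p = 0.00334). GMNN, which encodes geminin, the inhibitor of CDT1, averaged 26.1 ± 2.28 CPM in BP+Huaier and 19.6 ± 2.08 CPM in BP (SD, n = 3 each), a difference that missed the threshold (log2 fold change 0.41 ± 0.15, edgeR adjusted p = 0.0676). The comparison of CDT1 with GMNN was not itself tested. ORC1, an ATPase subunit of the origin recognition complex, was at 36.0, 43.6 and 33.4 CPM in BP+Huaier, against 24.6, 23.5 and 23.2 CPM in BP, 1.59-fold higher (edgeR adjusted p = 0.0121). Of the other subunits among the 59 genes none passed, with ORC6 at a log2 fold change of 0.39 ± 0.15, ORC3 at 0.15 ± 0.15 and ORC2 at -0.39 ± 0.18, while ORC5, from the further pathway genes, fell. CDC6, which joins ORC to recruit CDT1 and MCM, averaged 51.9 ± 4.29 CPM in BP+Huaier and 41.0 ± 2.41 CPM in BP (SD, n = 3 each; edgeR adjusted p = 0.0837).

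The MCM2 to MCM7 genes encode the subunits of 1 ring that is loaded in equal numbers, and MCM4 was the 1 of them that passed the test. Differences between the subunits were not tested. MCM4 had 228, 265 and 205 CPM in BP+Huaier, against 166, 163 and 166 CPM in BP (log2 fold change 0.49 ± 0.14, edgeR adjusted p = 0.0283). MCM7, the gene of this step with most counts, was at 525, 489 and 317 CPM in BP+Huaier, against 301, 264 and 325 CPM in BP, and missed the threshold (log2 fold change 0.58 ± 0.20, edgeR adjusted p = 0.0568). BP+Huaier 3 lay within the BP range for MCM7, while BP+Huaier 1 and 2 were above it. MCM2 and MCM5 had the same form, with log2 fold changes of 0.52 ± 0.22 and 0.47 ± 0.20 (edgeR adjusted p = 0.104 and 0.0999). For MCM3 it was 0.12 ± 0.14 and for MCM6 -0.14 ± 0.13. Per kilobase of exon the mean levels in BP+Huaier and BP were 101 and 67.7 CPM for MCM7, 53.0 and 37.0 for MCM2, 47.0 and 43.3 for MCM3, 33.4 and 23.7 for MCM4, 29.9 and 33.0 for MCM6 and 14.2 and 10.3 for MCM5. Exon length here is the union over all annotated isoforms, which lowers this value for genes with many of them. Without BP+Huaier 3, MCM2, MCM3, MCM5 and MCM7 were also called higher. The calls of ORC1 and MCM4 were lost without BP+Huaier 2 and without each BP library (edgeR adjusted p up to 0.0614 and 0.12). Both were also lost with scaling by library size alone, and that of MCM4 with a replicate block.

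Origin firing turns the loaded ring into an active helicase by adding CDC45 and the GINS complex, with MCM10 as an activator, and in this step GINS4 fell and no gene rose. GINS4 had 21.6, 23.3 and 19.998 CPM in BP+Huaier, against 29.6, 26.9 and 30.8 CPM in BP, log2 fold change -0.43 ± 0.14 (edgeR adjusted p = 0.0488). The other GINS subunits, which act in the same complex, did not pass the test. GINS2 had a log2 fold change of 0.37 ± 0.15, GINS1, with the most counts of the step at 45.6, 50.2 and 44.8 CPM in BP+Huaier, against 45.8, 49.1 and 42.9 CPM in BP, had 0.03 ± 0.13, and GINS3 had 0.04 ± 0.20. CDC45 averaged 36.7 ± 8.36 CPM in BP+Huaier and 26.3 ± 2.53 CPM in BP, with BP+Huaier 3 inside the BP range (edgeR adjusted p = 0.0876), and MCM10 averaged 19.1 ± 4.0 CPM in BP+Huaier and 19.1 ± 0.963 CPM in BP (SD, n = 3 each). GINS4 was close to the threshold and was not called when any 1 library other than BP+Huaier 3 was left out (edgeR adjusted p up to 0.193), with DESeq2 size factors or with no filter on low counts. A replicate block also ended this call.

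In the primase and polymerase step POLD1 rose and POLA1 fell. POLD1, the catalytic subunit of polymerase delta that copies the lagging strand, was at 211, 179 and 117 CPM in BP+Huaier, against 98.3, 96.2 and 114 CPM in BP (log2 fold change 0.72 ± 0.21, edgeR adjusted p = 0.0334). BP+Huaier 3 exceeded BP 3 by little. POLA1 (ENSG00000101868.13, GRCh38 chromosome X, 24693873 to 24996986), the catalytic subunit of polymerase alpha, which starts each fragment with primase, had 21.4, 26.3 and 33.2 CPM in BP+Huaier, against 40.8, 46.5 and 38.3 CPM in BP. All 3 BP+Huaier libraries were below all 3 BP libraries, and the log2 fold change was -0.63 ± 0.18 (edgeR adjusted p = 0.031). POLA2, its regulatory subunit, averaged 4.96 ± 0.401 CPM in BP+Huaier and 3.87 ± 0.371 CPM in BP (SD, n = 3 each), and 36.1% of its exon bases were shared with a further gene model on the same strand. Of the primase genes, PRIM1 had a log2 fold change of 0.10 ± 0.16 and PRIM2 of -0.27 ± 0.14. POLD2, a delta subunit with the most counts of the step, was at 430.1, 384 and 252 CPM in BP+Huaier, against 245, 236 and 281 CPM in BP (edgeR adjusted p = 0.0986), and POLD3 had a log2 fold change of 0.14 ± 0.14. POLE, the catalytic subunit of the leading-strand polymerase, had 0.13 ± 0.13, and its partner POLE2 -0.48 ± 0.19, neither past the test. The calls of POLD1 and POLA1 were lost when any 1 library other than BP+Huaier 3 was left out (edgeR adjusted p up to 0.13 and 0.13), and POLA1 was not called once the GC and length trend was subtracted, where its log2 fold change was -0.20. A replicate block also ended both calls. Scaling by library size alone or a filter at a mean of 5 CPM ended that of POLD1.

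The sliding clamp PCNA, which holds polymerases on DNA, and the RFC complex that loads it gave 1 rise among 6. RFC4 was at 44.2, 48.2 and 48.2 CPM in BP+Huaier, against 34.9, 34.1 and 34.6 CPM in BP, 1.36-fold higher (edgeR adjusted p = 0.03). Its groups were narrow and clearly apart. PCNA had 128, 158 and 121 CPM in BP+Huaier, against 102, 109 and 103 CPM in BP, also without overlap, but did not pass (log2 fold change 0.38 ± 0.14, edgeR adjusted p = 0.0734). RFC2 and RFC5 had log2 fold changes of 0.47 ± 0.19 and 0.41 ± 0.15, RFC3 of 0.19 ± 0.17 and RFC1, the large subunit, of -0.14 ± 0.22. RFC1 was below the BP range in BP+Huaier 1 and 2 and above it in BP+Huaier 3. The RFC4 call was lost without BP+Huaier 2 and without each BP library (edgeR adjusted p up to 0.127). It was also lost with scaling by library size alone, no filter on low counts, a filter at a mean of 5 CPM or a replicate block. Of 16 alternatives 8 kept it.

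None of the 5 genes of lagging strand maturation and single-strand binding passed the test, although all had log2 fold changes above 0. At an unadjusted p under 0.05 there was 1, LIG1, and by DESeq2 1 passed, again LIG1. LIG1, the ligase that joins the fragments, averaged 56.3 ± 8.96 CPM in BP+Huaier and 41.3 ± 2.92 CPM in BP (SD, n = 3 each; log2 fold change 0.44 ± 0.16, edgeR adjusted p = 0.0583). FEN1, the nuclease that trims fragment ends, had a log2 fold change of 0.29 ± 0.15. RPA1, the large subunit of the protein that coats single-stranded DNA, was at 220.0, 217 and 196 CPM in BP+Huaier, against 194, 197 and 189 CPM in BP, and RPA2 and RPA3 had log2 fold changes of 0.22 ± 0.14 and 0.09 ± 0.14.

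Nucleotide supply held the largest rise of the list. RRM2 (ENSG00000171848.16, GRCh38 chromosome 2, 10120698 to 10211725) encodes the small subunit of ribonucleotide reductase, which makes deoxyribonucleotides and is limiting for their supply in S phase. It had 542, 633 and 498 CPM in BP+Huaier, against 177, 179.6 and 163 CPM in BP, a log2 fold change of 1.69 ± 0.15 or 3.22-fold (SE; edgeR adjusted p = 0.000623). The 3 BP+Huaier libraries were close to each other and far above the 3 BP libraries, including BP+Huaier 3. RRM1, the large subunit of the same enzyme, averaged 169 ± 10.6 CPM in BP+Huaier and 143 ± 13.2 CPM in BP (SD, n = 3 each), without overlap but with a log2 fold change of 0.24 ± 0.13 that did not pass (edgeR adjusted p = 0.2). TK1, the thymidine kinase of the salvage route, had 229, 187 and 116 CPM in BP+Huaier, against 103, 82.9 and 115 CPM in BP, and rose 1.77-fold (edgeR adjusted p = 0.0335), with BP+Huaier 3 barely above BP 3. TYMS, which makes thymidylate by the other route, averaged 56.1 ± 5.62 CPM in BP+Huaier and 48.4 ± 2.75 CPM in BP and DUT, which removes dUTP, 41.5 ± 8.76 CPM in BP+Huaier and 35.7 ± 0.645 CPM in BP (SD, n = 3 each), neither past the test. TYMS shared 39.9% of its exon bases with ENOSF1 on the opposite strand. The TK1 call was lost when any 1 library other than BP+Huaier 3 was left out (edgeR adjusted p up to 0.14). Scaling by library size alone, a filter at a mean of 5 CPM or a replicate block also ended it. Summed over the 5 genes, the summed CPM was 1035, 1095 and 874 in BP+Huaier, against 509.8, 499 and 494 in BP. RRM2 carried much of this: without it the summed CPM was 493, 462 and 377 in BP+Huaier, against 333, 319 and 331 in BP. Over the BP mean that is 1.51, 1.41 and 1.15 in the BP+Huaier libraries. The E2F step was at 1.87, 1.62 and 1.38 with E2F1, its own largest rise, kept. These ratios are therefore not on like terms and do not rank the steps.

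**Figure D4:**
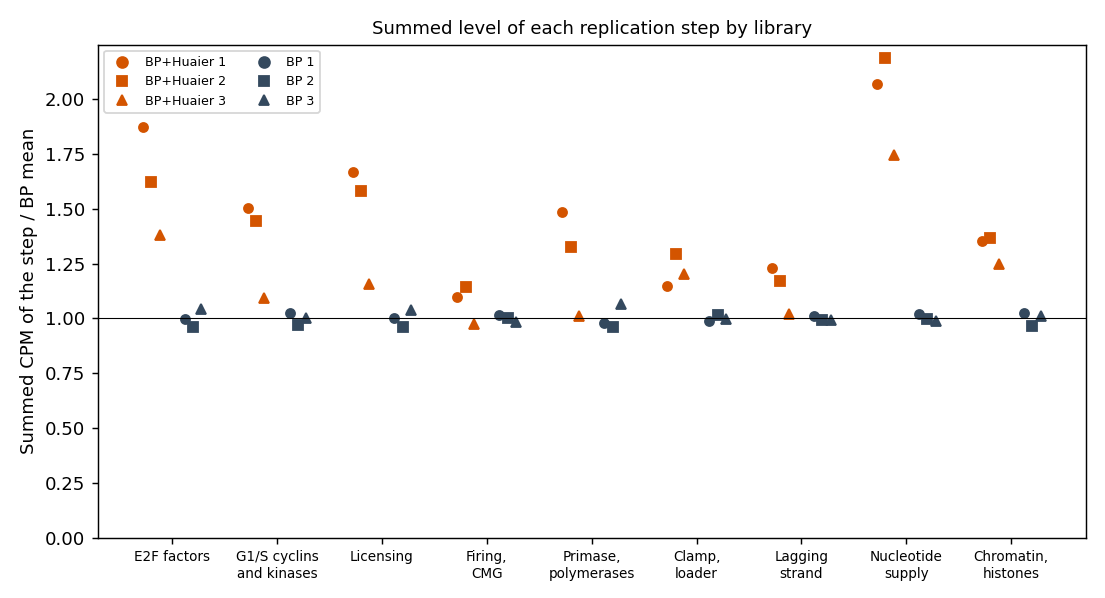
Summed CPM of each step's members in each library divided by the mean of the 3 BP libraries, with BP+Huaier libraries in orange left of BP libraries in dark blue. The nucleotide step lies farthest above the BP level in all 3 BP+Huaier libraries, with sums of 1035, 1095 and 874 CPM of which RRM2 gave 542, 633 and 498, while the origin firing step lies around it at 169, 175 and 149.6 CPM.

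Among genes of chromatin assembly and histone supply SLBP rose, the protein that binds the stem-loop of replication-dependent histone mRNAs and is needed for their processing. SLBP had 99.6, 112 and 103 CPM in BP+Huaier, against 67.8, 70.7 and 64.3 CPM in BP, log2 fold change 0.63 ± 0.13 (edgeR adjusted p = 0.00735) and groups well apart. UHRF1, which brings DNMT1 to newly copied DNA, was at 121, 117 and 109 CPM in BP+Huaier, against 94.6, 88.1 and 95.4 CPM in BP, without overlap, and missed the threshold (edgeR adjusted p = 0.0805). CHAF1A and CHAF1B, subunits of the histone chaperone CAF-1, had log2 fold changes of 0.26 ± 0.14 and 0.33 ± 0.15. Of 49 replication-dependent histone genes, most of whose mRNAs lack a poly(A) tail, 20 had enough counts to be tested, and 2 rose, H1-2 and H3C12, and 2 fell, H2AC11 and H2AC13, or 10.0% each way, beside 14.4% and 15.0% of all genes. H1-2, a linker histone, averaged 22.4 ± 6.62 CPM in BP+Huaier and 12.5 ± 1.26 CPM in BP (SD, n = 3 each; edgeR adjusted p = 0.027). The other 3 had means under 5 CPM and were named after their values were seen. Leaving out BP+Huaier 1, BP+Huaier 2, BP 2 or BP 3 in turn ended each of these calls. The call of H1-2 was kept under 9 of 16 alternatives. Those of H2AC11, H3C12 and H2AC13 were kept under 10, 6 and 4 of 15. The limma-voom fit ended the calls of H2AC11 and H2AC13, and DESeq2 that of H2AC13. Scaling by library size alone, a replicate block or removal of the GC and length trend ended that of H3C12. Summed over all 49 genes the summed CPM was 76.3, 102 and 56.1 in BP+Huaier, against 66.5, 63.7 and 66.4 in BP, with overlapping groups.

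Of 56 genes of the same pathways outside the 59, histones apart, 55 were tested, 4 rose and 4 fell, or 7.27% each way, beside 14.4% and 15.0% of all genes, and their median log2 fold change was -0.02, or 0.17 with the GC and length trend subtracted. These genes too were listed with earlier results of these data known. CDC25A, the phosphatase that activates CDK2 and a target of E2F, had 30.2, 32.7 and 26.9 CPM in BP+Huaier, against 15.8, 14.7 and 11.7 CPM in BP, and rose 2.12-fold (edgeR adjusted p = 0.00302), a call kept under all 16 alternatives. It was the 1 call among 11 tested genes of the RB family and G1, or 9.09%, beside 14.4% of all genes higher. SAMHD1, which breaks down deoxyribonucleotides, was at 25.2, 30.7 and 27.7 CPM in BP+Huaier, against 48.3, 50.3 and 44.4 CPM in BP, and fell by 0.78 on the log2 scale (edgeR adjusted p = 0.0053), also under all 16 alternatives. DCK, a deoxynucleoside salvage kinase, averaged 20.8 ± 3.66 CPM in BP+Huaier and 12.96 ± 2.35 CPM in BP (SD, n = 3 each) and rose (edgeR adjusted p = 0.0314).

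In licensing and firing, ORC5, CDC7 and MTBP fell, or 23.1% of the 13 genes on that list, beside 15.0% of all genes. No gene of that list rose, beside 14.4% of all genes. ORC5 had 16.6, 13.5 and 21.3 CPM in BP+Huaier, against 29.5, 31.2 and 28.3 CPM in BP (edgeR adjusted p = 0.0136). CDC7, the kinase that phosphorylates MCM subunits to fire origins, was at 6.01, 5.02 and 11.2 CPM in BP+Huaier, against 15.9, 14.3 and 14.5 CPM in BP (log2 fold change -0.99 ± 0.28, edgeR adjusted p = 0.0279). MTBP, which acts with the firing factor TICRR, averaged 3.44 ± 0.676 CPM in BP+Huaier and 5.98 ± 0.283 CPM in BP (edgeR adjusted p = 0.0232), and was named after its values were seen because its mean over the 6 libraries is under 5 CPM. At the fork POLE3, a small subunit of polymerase epsilon, and CHTF18, of an alternative clamp loader, rose 1.38-fold and 1.38-fold (edgeR adjusted p = 0.0418 and 0.0496). The calls of CDC7, MTBP, POLE3, CHTF18 and DCK were lost when any 1 library other than BP+Huaier 3 was left out, and that of ORC5 without BP+Huaier 2 and without each BP library. With the GC and length trend removed MTBP and CHTF18 were not called. Scaling by library size alone and a filter at a mean of 5 CPM each ended the calls of POLE3, CHTF18 and DCK. A replicate block ended those of POLE3, CHTF18 and MTBP, and a fit of protein-coding genes only those of POLE3 and CHTF18.

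GC content of the transcript moved with the fold change. Among the members the median GC content was 52.2% for those that rose, 45.4% for those that fell and 45.9% for the rest, and over all genes tested it was 56.6%, 46.4% and 48.5%. Across the 59 members, which share libraries and are not replicates, GC content and the log2 ratio over the BP mean had r = 0.72 for the first BP+Huaier library, 0.55 for the second and 0.04 for the third. Over all genes tested these were 0.39, 0.26 and 0.03, and for the fitted fold change r was 0.55 over the members and 0.26 over all genes. RRM2 had a GC content of 45.8%, below the median of all genes, and CDT1, E2F1, TK1 and POLD1 of 64.9%, 62.5%, 62.8% and 65.0%. After subtraction of each library's fitted GC and length trend, r across members for the fitted fold change was 0.15. The log2 fold change of RRM2 was then 1.93, that of CDT1 1.16, of E2F1 0.70, of TK1 0.47, of POLD1 0.36 and of E2F7 1.07. After removal 27 members rose, or 45.8%, beside 22.0% of all genes, and 1, GINS4, fell, beside 17.3%. The 27 held all 14 members that rose before and 13 more, CDC6, GMNN, ORC3, ORC6, GINS2, POLD3, PCNA, RFC2, RFC3, RFC5, LIG1, RRM1 and CHAF1B. The median log2 fold change of the members was then 0.35 and that of all genes 0.06.

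**Figure D5:**
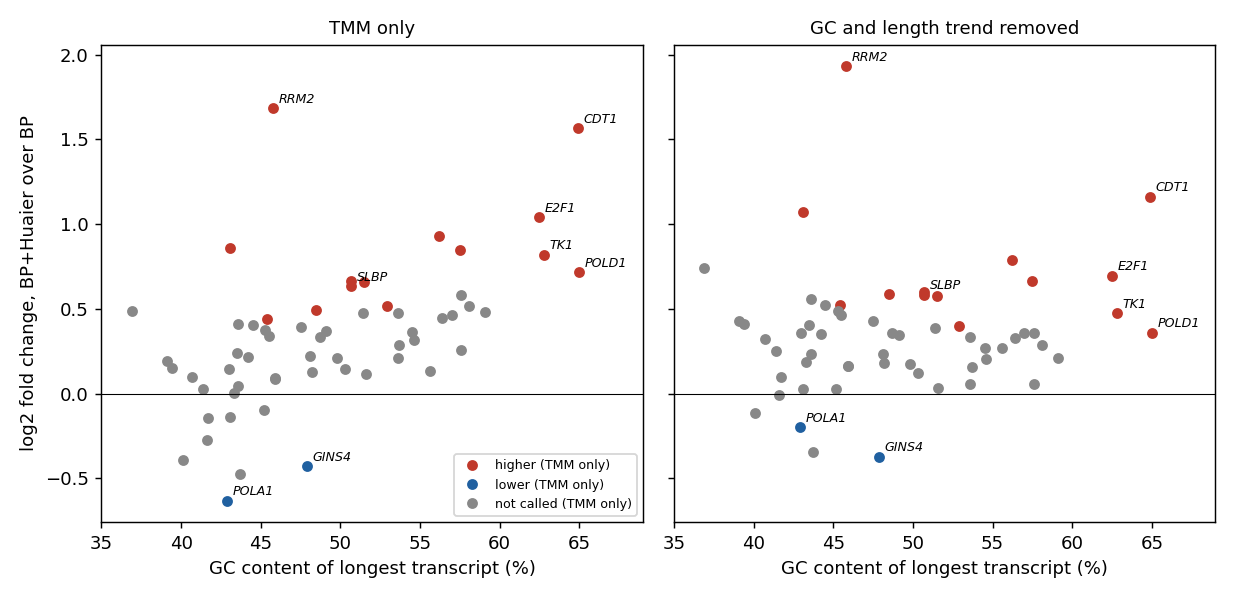
Log2 fold change of the 59 members, BP+Huaier over BP, against the GC content of the longest transcript, with TMM scaling only on the left and after removal of the GC and length trend on the right, and colours by the call with TMM scaling only. The points slope upward on the left (r = 0.55) and little on the right (r = 0.15), and RRM2 lies far above members of like GC content in both panels.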

How the data were processed

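RNA-seq libraries of MIA PaCa-2 cells were compared, 3 of BP+Huaier and 3 of BP. The authors deposited 1 table of raw read counts per gene, with 1 column per library, and the submitters' processing notes name fastp 0.20.0, HISAT2 2.1.0, featureCounts 1.6.1 and GRCh38. How featureCounts was set for strand, overlaps and multi-mapped reads, and with which annotation, is not given in the sources used. Of the 59 members 28 shared exon bases with another gene, and 24 with one on the opposite strand. The share with a single gene reached 30% of exon bases for CCNE2, CDK4, POLA2 and TYMS. Among members that passed the test it was largest in GINS4 at 21.0%, CDK2 at 14.5% and POLD1 at 8.6%. Of 60651 lines, 3 broken ones were not used and 44 Y copies of pseudoautosomal genes, with 0 counts, were left out, which leaves 60604 genes, and 99.77% of IDs were paired with a symbol. Counts were tested with edgeR 4.0.16 in R 4.3.3 (TMM, filterByExpr, robust quasi-likelihood test, group as the only term), with Benjamini-Hochberg adjustment over 15022 genes and a threshold of 0.05. The SE of a log2 fold change was derived as its absolute value divided by the square root of the F statistic of that test. The script was tested on simulated counts. Alternatives used DESeq2 1.42.0, limma 3.58.1, other scalings and filters, a replicate block, removal of the trend on GC content and length, and omission of each library. Totals were 15657593 to 17036565 counts, where 3 counts are 0.160 to 0.222 CPM, and the common coefficient of biological variation was 18.1%. No pair of libraries was alike within sampling noise. Library ratios used log2(CPM + 0.1). Per-kilobase levels divide by the length of all exons in the table. Promoters are those of RefSeq on GRCh38.p14.

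All 59 members could be named. Values in every library were printed for members that passed the test with a mean of at least 5 CPM and for the gene with most counts in each step, and up to 3 called genes were named per further list on the same terms. MTBP, H3C12, H2AC11 and H2AC13, with means under 5 CPM, fall outside that rule and were named after their values were seen. The members and the lists were chosen with earlier results of these data known.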

Additional observations from a re-analysis of the deposited data

How the results depend on the processing

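The reported counts were 14 members higher, 2 lower, 4406 of all genes called and 12 other pathway genes called. Scaling by library size alone gave 5 members higher, a members' median of 0.057 and, over all genes, 1051 higher and 2959 lower. DESeq2 size factors gave 1 member lower, as did no filter on low counts, and the DESeq2 test gave 22 members higher. Genes of at least 5 CPM gave 2873 calls, 6 among other pathway genes and a members' median of 0.23. An adjusted p under 0.01 gave 1636 calls in either direction among 15022 genes. Of the 59 members 4 were then higher and 0 lower, a smaller share than that of all genes. At that threshold 2 other pathway genes were called. Removal of the GC and length trend gave 27 members higher and 1 lower. Leaving out 1 library in turn gave 1719 to 9245 calls, 3 to 36 members higher, 0 to 5 lower and 2 to 35 other pathway genes, and where 2 libraries remain in a group the spread is pooled over groups. The cause of these changes was not tested. Over single members, no alternative reversed a call.

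Nothing in the labels says that the replicate numbers pair the libraries. Same-numbered libraries had correlations of their deviations from the group mean of 0.01, -0.06 and -0.28. Deviations within a group of 3 libraries depend on each other, so these values cannot decide whether the libraries were paired. With the replicate block edgeR gave 9 members higher, 0 lower and 6 other pathway genes, and with the replicate block and the GC and length trend removed 23 members higher and 0 lower.

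With 3 libraries per group and BP+Huaier 3 apart from the rest, small differences could not be detected, and a member that did not pass is not shown to be equal between groups.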
